A study of Mus musculus with 8 samples.

Results

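The expression of potassium channel genes was described in the mPFC (medial prefrontal cortex) of male mice of the inbred strain C3H/HeN. They were taken from the array by name, as every gene whose symbol starts with Kcn followed by family letters and a number, which gave 94 of the 34797 gene names on the array and 142 of its 55681 probes. The MS group held 4 mice that had gone through maternal separation together with unpredictable stress of the dam, in which pups were kept away from her daily from postnatal day 2 to 14, and the control group held 4 mice left with their dams. All were weaned at day 21, were tested for palatable food in operant chambers and were food-deprived before they were killed as adults, and no transgene, drug or deletion was used. Each mouse gave 1 single-colour Agilent array, and each animal is called by its group and its label number.

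Potassium channels let potassium leave the cell and so set the resting potential, end the action potential and limit firing rate. Voltage-gated (Kv) channels open on depolarisation, calcium-activated channels (BK and SK) open after firing, inward rectifiers (Kir) hold the resting potential and carry slow inhibition, and two-pore channels leak at rest. Accessory subunits such as the KChIP proteins and the Kv beta subunits tune the pores they bind. In frontal cortex these channels are known for shaping how pyramidal cells and fast-spiking interneurons respond to input.

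Levels are log2 probe signals minus the 75th percentile of their array, and the brightest probe stood for its gene. Of the 94 genes, 55 had 1 probe and 39 had several, up to 5. All arrays lay on 1 slide with 1 scan. Between 61.6% and 68.9% of all probes were well above background on each array, no spot was saturated, and correlations between arrays ran from 0.9828 to 0.9914. The number of arrays limits the precision. The 7 markers of cortical excitatory neurons, among them the vesicular glutamate transporter Slc17a7, were well above background on all 8 arrays. Markers of the olfactory bulb, a structure next to the frontal cortex, set animals apart within both groups. The mean of these 7 markers relative to the mean of the 8 arrays was -1.56, -0.87, -1.36 and 1.98 log2 in MS 5.3, 7.1, 7.2 and 7.6, and -1.46, -1.37, 3.25 and 1.38 in control 6.2, 8.2, 8.4 and 8.5. The bulb markers were thus high in MS 7.6, control 8.4 and control 8.5. Control 8.4 also had a striatal marker score of 1.5, against at most -0.07 in the other 7 animals. In tissue samples, fewer cells of a type and less RNA per cell cannot be told apart.

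The probes were 60-base oligonucleotides, and the first 30 bases of 7 of them are shown for the genes on which the account below rests most. Kcnj11 is shown because its groups did not overlap, and Kcnq1 because its probes overlap each other. Kcnk15 and Kcnj13 are shown because their levels are set beside markers of other tissue, and Kcnh3 because it was brightest. In the pair for Kcnq1, capitals mark the part of the shown bases that both probes share, and elsewhere all bases are in lower case.
Kcnj11 probe 1: agaaaaagaaatattgggaagttcagcctg
Kcnj11 probe 2: agtgtggctgtggcgaaggccaagcccaag
Kcnq1 probe 1: aatttcgtaGTATGATCTTGATTGAGAGAC
Kcnq1 probe 2: GTATGATCTTGATTGAGAGACttttccaaa
Kcnk15: gccacgcatcattgccacagcagcccagac
Kcnj13: catatcaatggacaaagcattgacaatttc
Kcnh3: cattccttgcatgtgcccgtctccactgtc

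On build mm9, the coordinates used by the scanner files, the probes lie on chromosome 7 minus strand at 53353119 to 53353178 and 53354095 to 53354154 for Kcnj11, and on chromosome 7 plus strand at 150612887 to 150612946 and 150612896 to 150612955 for Kcnq1. Those of the remaining genes shown lie on chromosome 2 plus strand at 163684551 to 163684610 for Kcnk15, chromosome 1 minus strand at 89282991 to 89283050 for Kcnj13, and chromosome 15 plus strand at 99073172 to 99073231 for Kcnh3. The position of the probes relative to exons was not analysed here.

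Among the first 8 potassium channel genes by signal, most are known from neurons and 1 from astrocytes, though the cells of origin were not measured. Kcnh3, a voltage-gated subunit of the ether-a-go-go family, had the highest level, 5.45 ± 0.03 in MS and 5.3 ± 0.15 in control mice (SD, n = 4 each). Kcna6, a Kv1 subunit, followed with 5.17 ± 0.14 in MS and 5.07 ± 0.17 in controls, and Kcnmb4, the beta subunit of neuronal BK channels, with 5.14 ± 0.05 in MS and 4.89 ± 0.31 in controls. Then came the inward rectifier Kcnj4 (mean of 8 animals 4.98), the calcium-binding Kv4 partner Kcnip3 (4.88), Kcnj10, the inward rectifier by which astrocytes take up potassium (4.59), and, within the first 8, Kcnd3, a subunit of the A-type current (4.02). The signals of different probes also depend on how well each probe binds, so this is an order of signals and not of transcripts per length.

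Neighbours in this order were often too close to separate. Among the 78 neighbouring pairs of tested genes, the gap was smaller than its own SD between animals for 64, and 8 pairs kept their order in all 8 animals. Kcnh3 lay above Kcna6 in 8 of 8 animals by 0.26 ± 0.09 (SD), whereas the gap of Kcna6 over Kcnmb4 (0.10 ± 0.14) and that of Kcnmb4 over Kcnj4 (0.04 ± 0.28) were within their SD. The choice of probe weighed more. For Kcna6, the 3 probes had mean levels between 5.12 and -2.84, and for Kcnip3 the 2 probes had 4.88 and -3.69. When all tested probes of a gene were averaged, 4 of the 8 brightest genes stayed among the first 8. Of 27 sets of probes made to the same transcript record, the brightest was the one nearest the end of the record in 21.

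**Figure D1:**
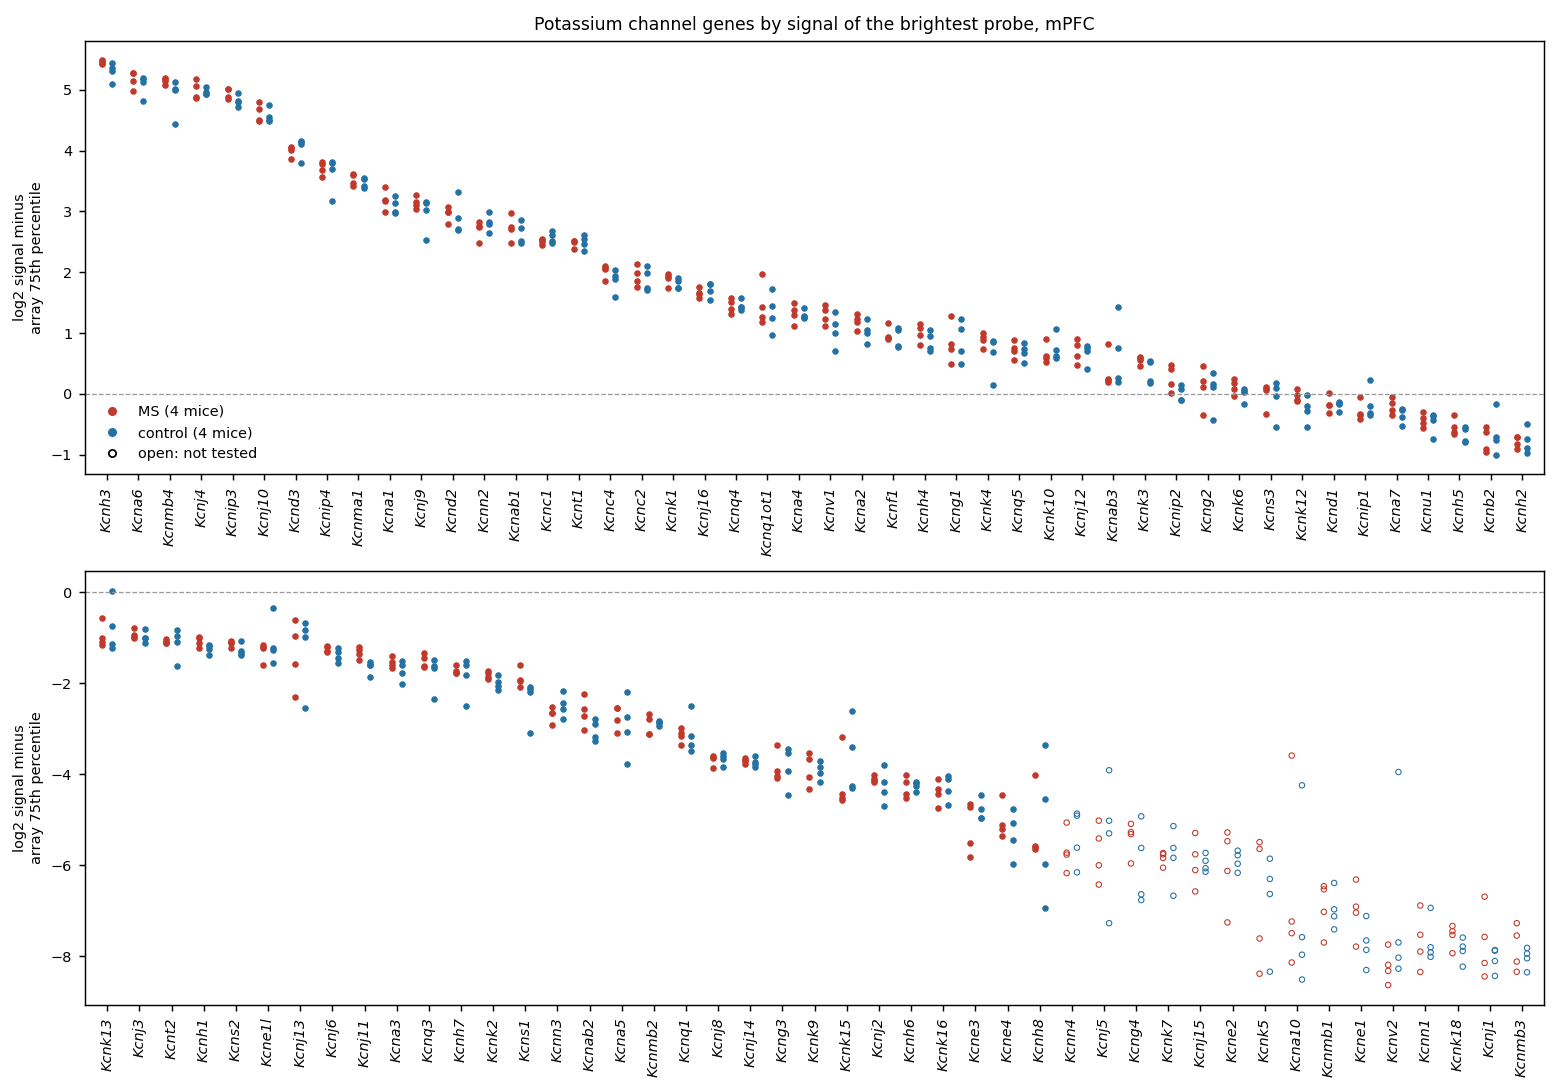
Level of 91 of the 94 potassium channel genes (x axis, ordered by mean signal) in each animal (y axis, log2 signal minus the 75th percentile of the array), red for 4 MS mice and blue for 4 control mice, open points for genes not tested. Levels run from Kcnh3 (mean 5.38) to Kcnmb3 (-7.93), and red and blue points overlap for nearly all genes.

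In all, 39 of the 94 genes lay above the 75th percentile, 79 were tested because all 4 arrays of MS or of control mice read them well above background, and 15 did not meet this. Among the 15, the probes of Kcnj1, known from kidney, Kcne1, known from heart and inner ear, Kcnmb1, the BK beta subunit of smooth muscle, Kcnk18, known from sensory ganglia, Kcnmb3 and Kcnn1 were not well above background on any array. Kcnn1 is a subunit of neuronal SK channels, and its single probe lay between -8.35 and -6.89 in MS and between -8.01 and -6.94 in control mice. For this gene the array gives no more than that this probe was dim. The tested genes included 76 that were well above background on all 8 arrays; for Kcne3 1 MS array and for Kcne4 and Kcnh8 1 control array fell short.

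MS and control mPFC did not differ past the threshold in any potassium channel gene. In limma, 0 of 79 tested genes had a Benjamini-Hochberg adjusted p under 0.05, as had 0 of all 34097 tested probes (0%), with 0.9996 as the smallest adjusted p. Without adjustment, 1 of the 79 had p under 0.05 on the higher side in MS and 0 on the lower side, where 1.19% of all probes were higher and 1.2% lower. The values of MS and control mice did not overlap for 1 gene that was higher in MS, against 0.851% of all probes, and for 0 genes that were lower, against 0.575%. Of the 79 genes, 53 had a positive and 26 a negative log2 fold change, with a median of 0.06, and over all probes 54.9% were positive with a median of 0.01. Without control 8.4, these were 49 positive and 32 negative of 81 tested, with a median of 0.03, while 48.8% of all probes were positive. The median SD between animals was 0.17 for the channel genes and 0.17 for all probes. The 95% confidence interval lay within 0.5 log2 in either direction for 54 of the 79 genes and within 1 log2, a 2-fold change, for 76.

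The 1 gene whose groups separated was Kcnj11, which makes the pore of the ATP-sensitive potassium channel that couples metabolism to excitability. Its brightest probe had levels of -1.49, -1.28, -1.21 and -1.35 in MS 5.3, 7.1, 7.2 and 7.6, against -1.59, -1.54, -1.86 and -1.59 in control 6.2, 8.2, 8.4 and 8.5. All MS values lay above all control values, with MS 5.3 and control 8.2 close together. The log2 fold change was 0.32 (standard error 0.10, 95% confidence interval 0.09 to 0.54), a ratio of 1.24 (unadjusted p = 0.0122, adjusted p = 0.9996 in limma). The difference was 0.21 in the first row of the slide and 0.42 in the second, with 2 animals of each group in each. It was 0.25 without control 8.4, the lowest control. Since the groups did not overlap, these differences had to be positive.

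The second Kcnj11 probe, 976 bases away, was much dimmer and did not separate the groups. It had levels of -5.40, -4.48, -4.66 and -4.67 in MS and -4.77, -4.97, -5.33 and -4.75 in control mice, which overlap widely. Its log2 fold change was 0.15 (standard error 0.21). Abcc8, the sulfonylurea receptor that joins Kcnj11 in neuronal channels, had 3.30, 3.27, 3.45 and 3.27 in MS and 3.23, 3.31, 2.92 and 3.22 in control mice, with control 8.4 lowest and a log2 fold change of 0.15 (standard error 0.10; 0.07 without control 8.4). The other pore subunit of such channels, Kcnj8, known from pericytes and vascular muscle, had -0.01 (95% confidence interval -0.23 to 0.21; -0.08 without control 8.4), and its partner Abcc9 had -0.12.

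**Figure D2:**
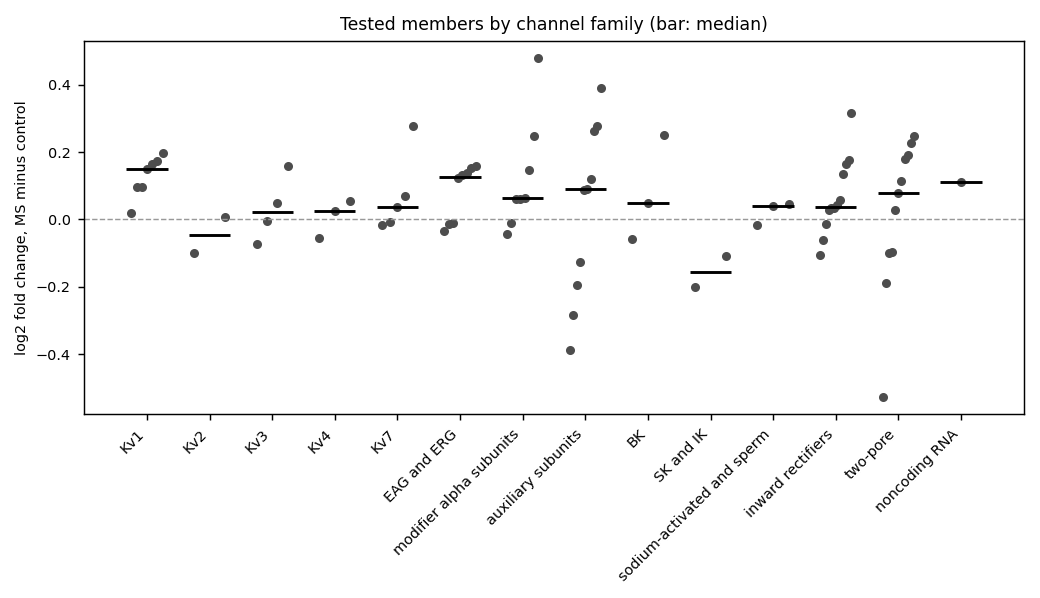
Log2 fold change (y axis, MS minus control, 4 mice each) of each of the 79 tested genes by channel family (x axis), with a bar for the family median. The widest spreads are in the auxiliary subunits (-0.39 to 0.39) and the two-pore channels (-0.53 to 0.25), and 0 genes passed the adjusted threshold.

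Among the Kv1 subunits, which sit on axons and near spike initiation sites, the brightest probes of 7 of 7 tested genes had positive values with a median of 0.15 (0.10 without control 8.4) and none passed. Dimmer tested probes of Kcna5 (-0.08), Kcna6 (-0.05) and Kcna7 (-0.10) had negative values, and of the 29 channel genes with several tested probes, 13 had probes of both signs. Kcna1 was at 3.17, 3.40, 3.18 and 2.98 in MS and at 2.97, 2.99, 3.25 and 3.14 in controls, which overlap (log2 fold change 0.10, 95% confidence interval -0.15 to 0.34; 0.15 without control 8.4). Kcna2, its common partner, had a log2 fold change of 0.17 (-0.07 to 0.41). Of the beta subunits that bind Kv1 channels, Kcnab1 had 0.09 (0.03 without control 8.4) and Kcnab2 0.39 (-0.01 to 0.79). Kcnab2 was at -3.03, -2.25, -2.57 and -2.71 in MS and at -2.79, -3.18, -3.26 and -2.89 in control mice. Only MS 5.3 reached into the control range. Without control 8.4 the log2 fold change of Kcnab2 was 0.31. Kcnab2 and Kcnab1 had 1 probe each.

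Kv3 channels, which allow the fast spiking of parvalbumin interneurons, had 2 positive and 2 negative values by the brightest probe. Kcnc1 had levels of 2.55, 2.46, 2.52 and 2.49 in MS and 2.51, 2.61, 2.69 and 2.49 in control mice, and its log2 fold change was -0.07 (95% confidence interval -0.24 to 0.10), at -0.04 without control 8.4. Its 2 dimmer probes went the other way, with 0.15 and 0.12. Kcnc2 had 0.05 (-0.23 to 0.33), and 0.00 without control 8.4. The score of 5 fast-spiking interneuron markers was between -0.11 and 0.06 in MS and between -0.05 and 0.18 in control mice. Its members disagreed in control 8.4, where Pvalb was lowest of all animals (2.61) and Gad1 (5.19), Slc32a1 (5.75) and Erbb4 (2.26) were highest. Cox6a2 was neither (0.80).

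The A-type subunits of the Kv4 family, which act on dendrites, had log2 fold changes of 0.06 for Kcnd2 (95% confidence interval -0.27 to 0.38; 0.19 without control 8.4), -0.06 for Kcnd3 (-0.03 without control 8.4) and 0.02 for Kcnd1 (-0.01 without control 8.4). Their KChIP partners were Kcnip3 at 0.12 (-0.07 to 0.31) and Kcnip2 at 0.26 (-0.01 to 0.54). Kcnip2 was at 0.02, 0.41, 0.16 and 0.48 in MS and at -0.11, 0.14, -0.10 and 0.08 in control mice. MS 5.3 lay within the control range and the 3 other MS mice above it.

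Kcnq3, a Kv7 subunit of the M-current, had 0.28 (95% confidence interval -0.14 to 0.69) on the log2 scale. It was at -1.61, -1.33, -1.44 and -1.64 in MS and at -1.63, -1.49, -2.35 and -1.67 in control mice, so control 8.4 alone lay apart. Without that animal its value was 0.09. Kcnq1, known from heart and inner ear, had 2 probes that share 51 of their 60 bases. Their mean levels were -3.13 and -3.18, and their log2 fold changes were -0.02 (standard error 0.20) and -0.22 (0.27), so readings of nearly the same sequence differed by about as much as their standard errors at this low signal. Without control 8.4, the highest animal, the first gave 0.20. Kcnq1ot1, an imprinted noncoding RNA transcribed from the opposite strand of the Kcnq1 locus, had 0.11 (-0.36 to 0.58; -0.02 without control 8.4). A dimmer Kcnq1ot1 probe had -0.14.

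In the ether-a-go-go family of 8 genes, 5 values were positive and 3 negative. Kcnh3 was at 5.44, 5.48, 5.48 and 5.42 in MS and at 5.35, 5.31, 5.10 and 5.44 in control mice. The MS values were tight, and control 8.5 lay among them (log2 fold change 0.15, 95% confidence interval -0.05 to 0.35; 0.09 without control 8.4). The modifier subunits, which form no channel alone but alter Kv2 channels, had 6 positive and 2 negative values, and 4 of each without control 8.4. Kcns1 of this group had the largest positive log2 fold change of the named genes, 0.48 (-0.03 to 0.99). Its levels were -1.93, -1.60, -1.96 and -2.09 in MS and -2.13, -2.19, -3.09 and -2.09 in control mice, so 3 controls lay just under or within the MS range and control 8.4 far below. Without control 8.4 the value was 0.24.

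None of the 5 tested calcium-activated subunits passed the test. The BK pore Kcnma1 had 0.05 (95% confidence interval -0.14 to 0.24; 0.03 without control 8.4), with its other probes at -0.09 and -0.19. Its beta subunit Kcnmb4 had 0.25 (-0.08 to 0.58), and a dimmer Kcnmb4 probe had 0.35 (-0.02 to 0.72), also with control 8.4 lowest. By the brightest probe, Kcnmb4 was at 5.19, 5.14, 5.18 and 5.08 in MS and at 5.01, 5.13, 4.44 and 5.0 in control mice. Control 8.4 lay lowest, and without that animal the value of this probe was 0.10. The SK subunits of the afterhyperpolarisation were Kcnn2 at -0.11 (-0.35 to 0.13; -0.05 without control 8.4) and Kcnn3 at -0.20 (-0.52 to 0.12; -0.10 without control 8.4).

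Among the inward rectifiers, 9 of 12 values were positive. Subunits of the channel opened by G proteins downstream of GABA-B receptors included Kcnj3 at 0.06 (95% confidence interval -0.16 to 0.27) and Kcnj6 at 0.14 (-0.07 to 0.34; 0.08 without control 8.4). Kcnj9, another such subunit among the tested genes but not chosen as a named gene, was brighter (mean of 8 animals 3.05). It had 0.175 (-0.145 to 0.495), with control 8.4 lowest. The receptor genes Gabbr1 and Gabbr2 had 0.14 and 0.17, and 0.07 and -0.12 without control 8.4. The astrocyte channel Kcnj10 was at 4.49, 4.68, 4.50 and 4.80 in MS and at 4.55, 4.49, 4.75 and 4.50 in control mice, and the groups overlapped throughout (log2 fold change 0.04, -0.19 to 0.27; 0.10 without control 8.4). The score of 6 astrocyte markers was between -0.15 and 0.12 in MS and between -0.06 and 0.19 in control mice. Kcnj4 had 0.03 (-0.18 to 0.23; 0.05 without control 8.4).

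Of 11 tested two-pore channels, 7 had positive and 4 negative values. Kcnk2, a channel opened by stretch and fatty acids, was at -1.91, -1.87, -1.74 and -1.78 in MS and at -2.06, -1.83, -1.98 and -2.15 in control mice, with control 8.2 among the MS values (log2 fold change 0.18, 95% confidence interval -0.03 to 0.39). Kcnk12 had 0.23 (-0.04 to 0.50; 0.13 without control 8.4) and Kcnk1 0.08 (-0.11 to 0.27). The auxiliary subunit Kcne3 had -0.39 (-0.99 to 0.22), with 2 of 4 MS animals below all controls at a dim level, and its second probe had -0.11.

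**Figure D3:**
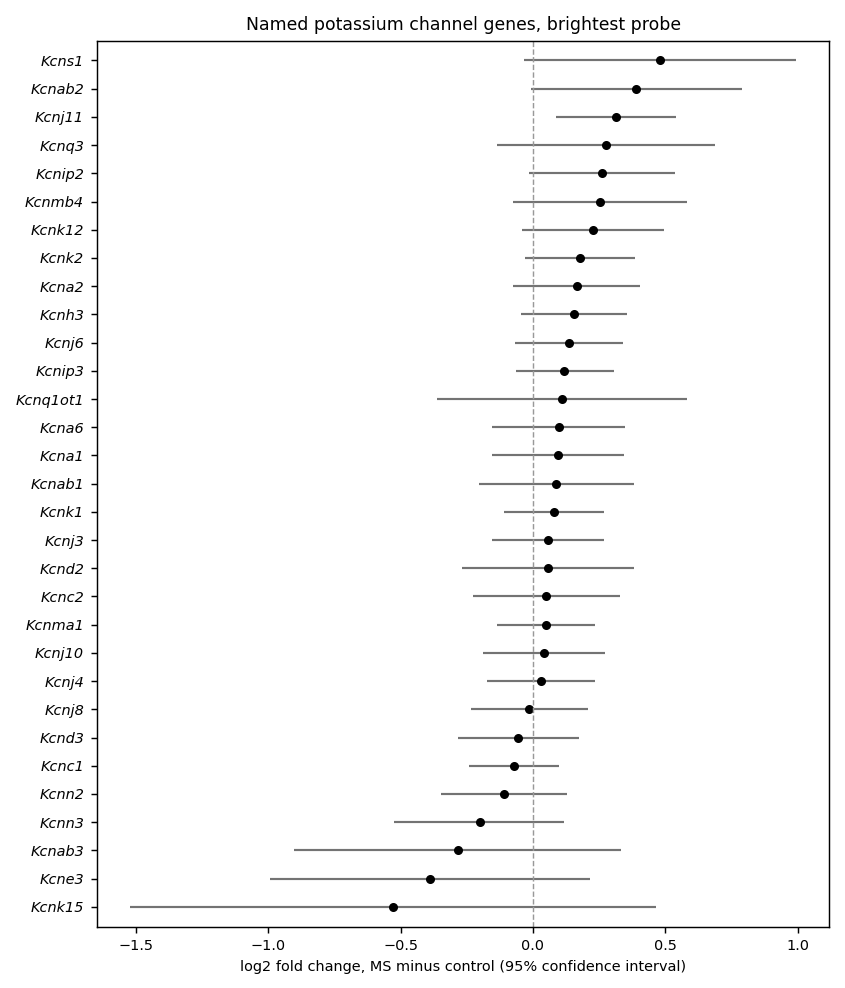
Log2 fold change (x axis, MS minus control, 4 mice each) of 31 named potassium channel genes (y axis), where a point is the estimate of limma and a line its 95% confidence interval. Every line but that of Kcnj11 (0.09 to 0.54) crosses 0, and Kcnk15 has the widest (-1.52 to 0.47).

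The members that varied most between animals did so within the groups. In control 8.4, 9 of 79 genes lay more than 0.5 log2 above the mean of the other 7 animals and 13 more than 0.5 below, together 27.8% of the channel genes against 16% of all probes. This animal had the lowest value of the 8 for 33 channel genes (41.8%, against 33% of all probes) and the highest for 16 (20.3%, against 17.9%). The genes furthest above were Kcnh8 (2.11), Kcnk15 (1.48), Kcnab3 (1.03) and Kcnk13 (1.02), and those furthest below were Kcns1 (-1.10), Kcnh7 (-0.81), Kcnq3 (-0.80) and Kcnk4 (-0.71). Genes that were not chosen as named genes were singled out here and below after their values were seen.

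For 5 of the 79 channel genes (6.33%, against 4.06% of all probes) the highest 3 animals were the 3 with high olfactory bulb markers. For another 5 (6.33%, against 3.58%), Kcnab1, Kcnc4, Kcns3, Kcna3 and Kcnq3, these animals were the lowest 3. Kcnk15, a two-pore subunit that forms no working channel alone, was at -4.43, -4.56, -4.52 and -3.18 in MS and at -4.30, -4.27, -2.62 and -3.39 in control mice. A second Kcnk15 probe did not meet the filter and was not tested. It was at -5.74, -5.84, -6.34 and -1.34 in MS and at -5.45, -7.30, 0.07 and -1.68 in control mice. Kcnab3, a Kv beta subunit, was at 0.23, 0.25, 0.20 and 0.82 in MS and at 0.27, 0.19, 1.42 and 0.75 in control mice. In both genes MS 7.6 lay above the rest of its group, which followed from choosing genes by these 3 highest animals. Kcnh8 was at -5.65, -5.57, -5.61 and -4.03 in MS and at -5.98, -6.94, -3.36 and -4.54 in control mice. Kcnk13, known from microglia, was at -1.01, -1.16, -1.09 and -0.57 in MS and at -1.22, -1.15, 0.03 and -0.74 in control mice, while the score of 4 microglial markers stayed between -0.05 and 0.08 in MS and between -0.10 and 0.02 in controls. The fifth was the KChIP gene Kcnip1, at -0.05 in MS 7.6, 0.23 in control 8.4 and -0.19 in control 8.5, and at most -0.32 in the other 5 animals. Among the partner genes, Lrrc55, a gamma subunit of BK channels, had -0.04 in MS 7.6, 0.86 in control 8.4 and -0.58 in control 8.5, and at most -1.31 elsewhere. The part of bulb tissue in these values was not tested.

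The group differences of these genes depended on which animals were included. Over all alternatives, the log2 fold change ran from -0.86 to -0.19 for Kcnk15 and from -0.59 to 0.85 for Kcnh8. The log2 fold change of Kcnk15 was -0.53 (95% confidence interval -1.52 to 0.47) and -0.19 without control 8.4, and that of Kcnab3 was -0.28 (-0.90 to 0.33) and -0.03. For Kcnk13 it was -0.19 with control 8.4 and 0.08 without, for Kcnh8 -0.01 and 0.60, for Kcnip1 -0.13 and 0.00, and for the KCNE-like subunit gene Kcne1l -0.20 and 0.05.

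Some genes were picked for low values in control 8.4, which was lowest for 41.8% of tested channel genes and 33% of all probes. Kcnk4, a stretch-activated two-pore channel, was at 0.89, 0.73, 1.0 and 0.93 in MS and at 0.87, 0.85, 0.15 and 0.69 in control mice, and Kcnip4, a KChIP gene, was at 3.78, 3.68, 3.81 and 3.57 in MS and at 3.79, 3.81, 3.18 and 3.70 in controls. In both, control 8.4 lay below all other animals, as their choice required. The score of the 7 cortical excitatory markers was -0.54 in control 8.4, whereas the other 7 animals lay between -0.06 and 0.26. Without control 8.4, the log2 fold change of Kcnk4 was 0.08 in place of 0.25, and that of Kcnip4 was -0.06 in place of 0.09. The part of the tissue in this sample was not tested.

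Kcnj13, an inward rectifier known from choroid plexus and retinal pigment epithelium, varied in both groups and is set beside another list. Its levels were -2.31, -0.97, -1.59 and -0.61 in MS and -0.83, -0.68, -0.99 and -2.55 in control mice, so MS 5.3, MS 7.2 and control 8.5 were low. A second probe on the same transcript had -1.88, -0.99, -1.53 and -0.89 in MS and -1.04, -0.87, -0.90 and -2.48 in control mice, with the same 3 animals low. The score of 4 meningeal fibroblast markers was -0.99, 0.58, -0.57 and 0.51 in MS and 0.19, 0.35, 0.28 and -0.35 in control mice. This score was negative in those 3 animals alone, but their order differed. Kcnj13 was lowest in control 8.5 and the score was lowest in MS 5.3. The score of 4 choroid plexus markers was 1.27 in control 8.4 and at most 0.12 elsewhere. Its members disagreed in control 8.4, where Folr1 was lowest of all animals (-5.45) and Clic6, Ttr and Kl were highest. The log2 fold change of Kcnj13 was -0.11 (95% confidence interval -1.19 to 0.98; -0.02 without control 8.4) and its second probe had 0.00. The part of meningeal tissue was not tested.

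**Figure D4:**
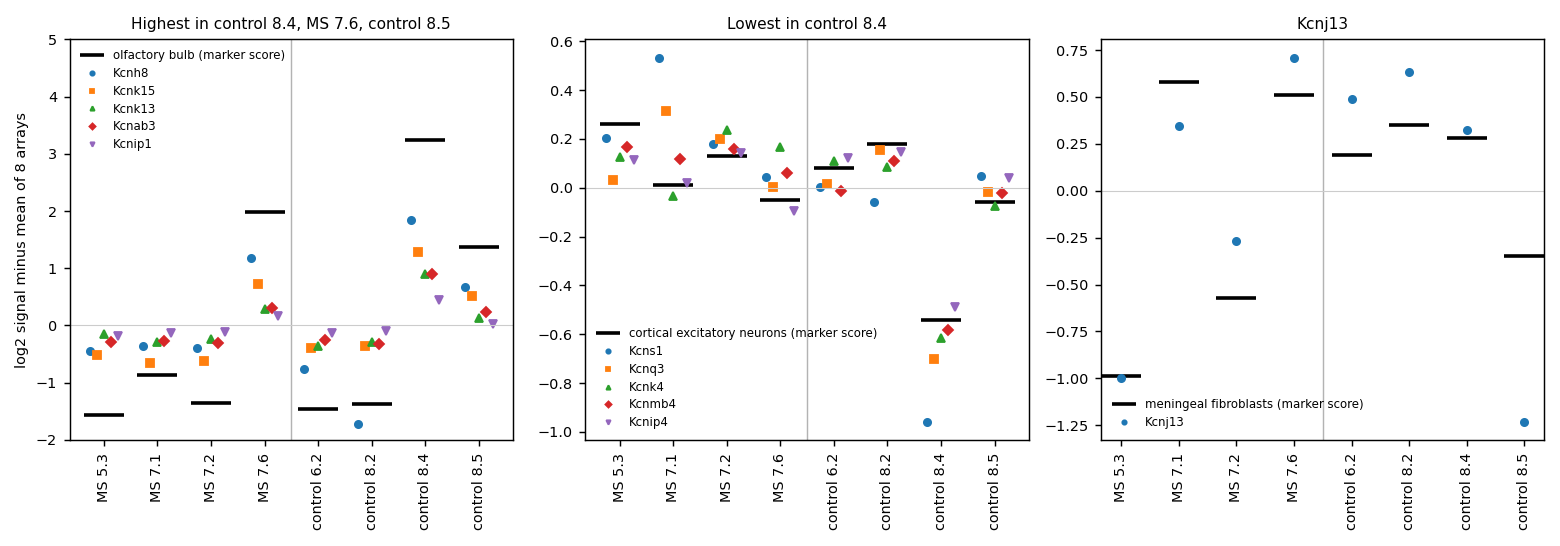
Log2 signal minus the mean of the 8 arrays (y axis) in each animal (x axis, MS left and control right of the line) for 5 genes highest in the animals with high olfactory bulb markers, 5 genes lowest in control 8.4, and Kcnj13. Black bars are marker scores of olfactory bulb (3.25 in control 8.4), cortical excitatory neurons (-0.54 in control 8.4) and meningeal fibroblasts (-0.99 in MS 5.3).

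The 22 partner genes that anchor, traffic or activate these channels gave no call either. Of 20 tested, 13 had positive and 7 negative log2 fold changes with a median of 0.05, 0 passed the adjusted threshold and 0 had groups that did not overlap. The Kv4 partner Dpp6 was at 3.34, 3.37, 3.47 and 3.41 in MS and at 3.36, 3.42, 3.39 and 3.41 in control mice, a log2 fold change of 0.00. Dpp10, its relative, had 0.12 (0.08 without control 8.4). The axonal clustering protein Cntnap2 had -0.01 (0.04 without control 8.4) and the ankyrin Ank3, which holds Kv7 channels at the axon initial segment, 0.00 (0.06 without control 8.4).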

How the data were processed

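Total RNA of the mPFC of 8 mice (4 MS, 4 control) was labelled with Cy3 from 200 ng and hybridised to 1 Agilent 8x60K array each, per the labels. With Agilent Feature Extraction 10.10.1.1, the authors made a spot intensity that is background-subtracted but not normalised between arrays. The deposited log2 table, quantile-normalised by the authors without background subtraction, served as an alternative. File headers give design 28005 and build mm9.

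Here, 3671 control spots and outlier spots were left out, spots of a probe were averaged, and log2 intensity minus the array's 75th percentile was used. Probes that either group read well above background on all 4 of its arrays were tested with limma 3.58.1 (R 4.3.3, statmod 1.5.0, data.table version 1.17.8; lmFit, eBayes, no covariate, two-sided), with Benjamini-Hochberg adjustment over all 34097 at 0.05. The fit was tested on simulated data. A marker score is the mean log2 value of a list minus its mean over 8 arrays. Python 3.11.15, pandas 2.3.3, numpy 2.4.6 and matplotlib 3.10.9 were used.

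Members and lists were chosen with earlier results of these data known. Named genes were the 8 brightest, the 6 higher and 6 lower of smallest unadjusted p, and a panel of 19; a few of them are not reported here. By accession, 92 of 94 genes matched RefSeq. Animals are separate mice, but those whose labels share the number before the point may not be independent, and p-values measure only the spread between these animals.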

Additional observations from a re-analysis of the deposited data

Results flagged for a closer look

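In 10 of 80 groups of 4 animals, 1 value stood apart from the other 3 by Dixon's test. Chance gives about 1 in 20, but the count cannot be read against it, since Kcnh8, Kcne1l, Kcnip4 and Kcnj13 were singled out after their values were seen and others for a small p. MS 7.6 stood high for Kcnk15 (-3.18), Kcnab3 (0.82) and Kcnh8 (-4.03), and it is the MS animal with the olfactory bulb score of 1.98. Control 8.4 stood low for Kcnj11 (-1.86), Kcns1 (-3.09) and Kcnip4 (3.18). MS 7.2 stood low for Kcnj8 (-3.85) and Kcne1l (-1.60), control 8.5 for Kcnj13 (-2.55) and control 6.2 for Kcnd3 (3.80).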

How the results depend on the processing

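No channel gene passed the adjusted threshold in limma in any of 17 alternatives. The number of genes with positive log2 fold changes was 49 to 59 on leaving out 1 animal, and the median 0.032 to 0.077. The number whose groups did not overlap was 2 with quantile normalisation (both higher, against 0.915% of all probes), 2 with normexp (both higher, against 0.886%), 3 in the authors' table (2 higher, against 0.97%, and 1 lower, against 0.586%) and 0 with the mean of all probes of a gene. On leaving out 1 animal it was 1 to 7, where 1.19% to 3.62% of all probes were higher and 1.03% to 2.7% lower. The 7 were without MS 7.6, with 6 higher, against 2.3%, and 1 lower, against 1.52%. Without MS 7.6, control 8.4 and control 8.5, an alternative chosen after seeing the data, it was 15 of 81 (13 higher, against 6.73% of all probes, and 2 lower, against 5.26%), by construction with fewer animals. The groups of Kcnj11 did not overlap in 16 of 17 alternatives, with log2 fold changes of 0.23 to 0.37 and adjusted p of 0.421 to 1. This outcome was fixed in advance wherever animals were left out or only the filter or the block changed, because the values stayed the same. It could change only with another normalisation or the mean of probes, and it was lost with the mean of probes. With the number before the point as a random block (correlation -0.224), 13 of 79 genes had an unadjusted p under 0.05 in limma, all higher, against 1 gene without the block. Of all probes, 6.7% were higher and 4.55% lower. No number before the point is shared between MS and control mice, so the block cannot adjust the comparison of the groups. A negative correlation narrows the standard error of that comparison, so the 13 genes were not read as a result.

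Of 40 genes given with fold changes (Kcnj9 was not among them), 22 kept their sign in every alternative in which they were tested (all 17 for 21 of them, and 15 for Kcne3). Signs turned, in genes with small fold changes for the most part, with quantile normalisation for Kcnh8 (0.010), Kcnj10 (-0.005), Kcnj4 (-0.015), Kcnj8 (0.004) and Kcnq1 (0.001), with normexp for Kcnd1 (-0.008), Kcnj4 (-0.036), Kcnj8 (0.009) and Kcnq1 (0.003), in the authors' table for Kcnd1 (-0.013), Kcnd2 (-0.019), Kcnj4 (-0.066) and Kcnq1 (0.024), with the random block for Kcnj13 (0.068), and with the mean of probes for Kcnc1 (0.067), Kcnd1 (-0.026), Kcnma1 (-0.078) and Kcnq1ot1 (-0.017). Without the 3 animals they turned for Kcnc2 (-0.083), Kcnd3 (0.024), Kcne1l (0.071), Kcnh8 (0.846), Kcnip4 (-0.042), Kcnk13 (0.095), Kcnma1 (-0.003), Kcnn3 (0.058) and Kcnq1 (0.122). On leaving out 1 animal the ranges that crossed 0 were -0.018 to 0.122 for Kcnc2, -0.035 to 0.072 for Kcnd1, -0.014 to 0.191 for Kcnd2, -0.348 to 0.054 for Kcne1l, -0.590 to 0.603 for Kcnh8, -0.203 to 0.004 for Kcnip1, -0.057 to 0.153 for Kcnip4, -0.018 to 0.102 for Kcnj10, -0.534 to 0.209 for Kcnj13, -0.031 to 0.071 for Kcnj4, -0.075 to 0.044 for Kcnj8, -0.340 to 0.077 for Kcnk13, -0.139 to 0.195 for Kcnq1 and -0.059 to 0.238 for Kcnq1ot1. Leaving out control 8.4 moved 31 of the 40 by more than 1.5 times. Of the 8 brightest genes, 4 remained among the first 8 with the mean of probes. The cause was not tested. No paired analysis was possible because the labels of the 2 groups share no animal number.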
